A study of Mus musculus with 70 samples.

Results

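The 14 libraries described here hold RNA of CD45- cells sorted from B16F10 tumors on day 7, 3 from histotripsy-treated tumors and 11 from sham-ablated control tumors, out of 70 libraries in the series. They were chosen by cell fraction, time and treatment as the sample labels give them, and no measured value entered the choice. B16F10 is a pigmented melanoma cell line from the C57BL/6 mouse, a single transplanted line that was injected under the skin of both flanks of young adult C57BL/6 mice of either sex. In the treated mice, 1 of the flank tumors received partial histotripsy, in which focused ultrasound pulses break up tissue mechanically by cavitation without heating it, and part of the tumor was left outside the ablation zone. Control mice went through the sham procedure. The tumor on the other flank of treated mice, which was not exposed to ultrasound, gave the 4 histotripsy-abscopal libraries. These helped to estimate the spread between libraries, and are otherwise quoted only as levels. The sources used here name no mouse, sex or sequencing batch for a library and do not say that each library is a separate mouse, so p-values measure only the spread between these libraries, which may be partly technical. Mice were not randomized to treatment.

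CD45, the product of Ptprc, is carried by nearly all nucleated blood-derived cells, so that the CD45- fraction of a melanoma holds the tumor cells together with the fibroblasts, endothelial cells and pericytes that support them. Melanoma cells of this line keep the melanocyte program, in which the transcription factor Mitf drives the enzymes and scaffold proteins of pigment granules. Fibroblasts lay down the collagens and proteoglycans of the tumor matrix, and interferon gamma from T and NK cells raises antigen presentation by MHC class I on the tumor cells around them. In bulk RNA, fewer cells of a type and less RNA per cell cannot be told apart.

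Library size, after reads with the same molecular identifier had been collapsed, was 3078056, 2381218 and 1901387 counts in treated replicates 1, 2 and 3, and ranged from 1335518 to 3132646 counts (median 2397749) in the control libraries. Levels below are CPM, the counts of a gene per 1000000 counts of the library. The sort is visible in the counts. Ptprc had 0 counts in the 3 treated libraries and in 10 of the 11 control libraries, and 1 count in the remaining control library, whereas its level was 987 ± 80.1 CPM (SD, n = 3) in the CD45+ cells of treated tumors on the same day. A count of 0 allows up to 3 counts at this depth, and all such limits cover counting error only. Lineage-defining genes of T cells (Cd3e), B cells (Cd79a), neutrophils (S100a8) and macrophages (Csf1r) never exceeded 3 counts in any of the 14 libraries, and the keratinocyte gene Krt14 was at 0 in all of them. The macrophage lysozyme gene Lyz2 reached at most 9 counts. The summed level of 20 melanocyte genes was 39964, 41625 and 41060 CPM in the treated libraries and 36109 to 43231 CPM in the control libraries, with the treated libraries inside the control range.

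Treated replicate 3 stood apart from the other 13 libraries, and its weight in the results below is shown by values with and without it. On the first principal component of the 500 most variable genes, which held 45.4% of the variance, it lay at 45.5, while treated replicates 1 and 2 lay at -3.19 and -6.37, within the control range of -14.7 to 11.5. In treated replicate 3, 94 genes were at 20 CPM or more and over 2-fold above the highest of the other 13 libraries. The same criterion found 1 gene in control replicate 7 and 0 genes in each of the other 12 libraries. The 94 were 1.48% of the 6355 tested genes at 20 CPM or more in this library. Of the fibroblast and matrix list, 19 of the 21 genes at that level were among them.

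**Figure D1:**
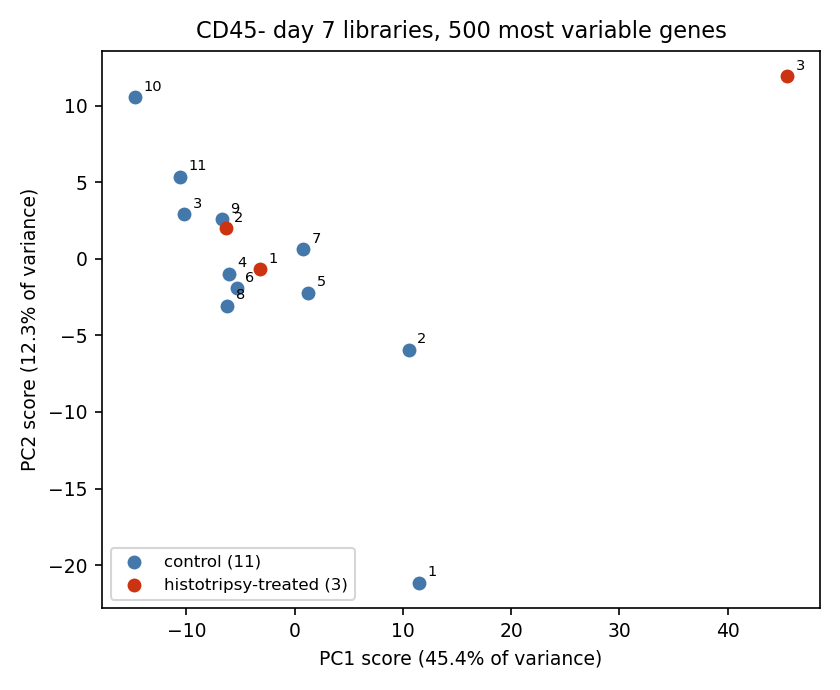
Scores of the 14 CD45- day 7 libraries on the first and second principal components of 500 variable genes (log10 of CPM plus 1, each gene scaled to unit variance; axes give component scores and the percent of variance held). Treated replicate 3 lies at 45.5 on the first component, while treated replicates 1 and 2 lie within the range of the 11 control libraries.

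No gene passed an adjusted p of 0.05 between treated and control tumors. Of 10996 genes tested with edgeR's quasi-likelihood test, 0 were called (0%), and the smallest Benjamini-Hochberg adjusted p was 0.105, for H19. DESeq2 and limma-voom also called 0 genes. At an unadjusted p under 0.05, 668 genes (6.07%) were found, of which 421 (3.83%) had the higher level and 247 (2.25%) the lower level in treated tumors. The median log2 fold change over all tested genes was 0.0029, and 5570 of them had a positive sign. Without treated replicate 3, 0 of 11228 genes were called, the smallest adjusted p was 0.563, and 744 genes (6.63%) had an unadjusted p under 0.05. Calls appeared when either of the other treated libraries was left out: 20 genes without treated replicate 1 and 26 without treated replicate 2, all of them higher, in fits whose treated group still held replicate 3. Leaving out control replicate 1 gave 1 call, H19, which was higher by 5.23 on the log2 scale. All fold changes below are log2 values of treated over control from the edgeR fit, with the standard error, and none passed the adjusted threshold.

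Melanocyte genes lay within a narrow range in all 14 libraries. Of 20 listed genes 19 were tested, 0 reached even an unadjusted p under 0.05 against 6.07% of all genes, 10 had a positive sign, and the median fold change was 0.03. Dct, which makes an intermediate of melanin (chr14:118012790-118052244, GRCm38), stood at 25307, 24736 and 23742 CPM in treated replicates 1, 2 and 3, and at 20582 to 24809 CPM (median 23407) in the control libraries. Only treated replicate 1 lay above the control range, and the fold change was 0.13 ± 0.0859 (SE; adjusted p = 0.922). Mitf, the lineage's transcription factor, was at 1966, 1532 and 1347 CPM against 1340 to 1786 CPM in control libraries, with treated replicate 1 again the highest of all and the other 2 inside the range. Pmel, which forms the fibrils on which pigment is laid down, was at 2650, 3182 and 3481 CPM (control 2581 to 3682 CPM), and Tyrp1, a pigment enzyme, at 1605, 2285 and 2242 CPM (control 1672 to 3004 CPM). Their fold changes were -0.05 and -0.14, and the groups overlapped for both. Mlana, a melanosome membrane protein, had a fold change of 0.13.

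Fibroblast and matrix genes were far above the control libraries in treated replicate 3 and, with the exception of Fn1, within the control range in treated replicates 1 and 2. Fn1, which encodes fibronectin, was below the lowest control by a small margin in both of these libraries. Col1a1, which encodes the α1 chain of type I collagen (chr11:94936224-94953042), was at 83.2, 31.9 and 1409 CPM in treated replicates 1, 2 and 3, and at 5.62 to 300.3 CPM (median 25.4) in the control libraries. The groups overlapped, since only treated replicate 3 exceeded the highest control. The fold change was 3.05 ± 0.885 (adjusted p = 0.381) with treated replicate 3, and 0.03 without it. Col3a1, the chain of type III collagen, was at 51.3, 18.5 and 1132 CPM against 2.34 to 171 CPM (median 11.5) in control libraries. Its fold change was 3.60 ± 0.926 (adjusted p = 0.313), and 0.22 without treated replicate 3. Dcn, the proteoglycan decorin that coats collagen fibrils (chr10:97479609-97518143), was at 10.4, 3.78 and 313 CPM against 1.16 to 42.2 CPM (median 4.76). Its fold change of 3.68 ± 0.869 (adjusted p = 0.253) became -0.07 without treated replicate 3.

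Col1a2 encodes the second chain of type I collagen (chr6:4504814-4541544) and is shown with its promoter as an example of the list. The 250 bases before the start site (chr6:4505368-4505617, plus strand, RefSeq, GRCm38.p6) are given 5′ to 3′, with the single match to the letters CCAAT, searched on both strands and starting 109 bases before the start site, in capitals.
Col1a2: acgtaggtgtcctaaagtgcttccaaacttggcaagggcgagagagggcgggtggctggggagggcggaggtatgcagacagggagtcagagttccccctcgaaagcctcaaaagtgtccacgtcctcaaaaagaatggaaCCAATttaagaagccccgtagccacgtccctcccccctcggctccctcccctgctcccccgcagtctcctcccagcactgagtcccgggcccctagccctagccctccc
These letters were found in 1 of 16 windows of the 13 fibroblast and matrix genes that could be matched to the promoter table out of 23 tested, in 35.4% of the windows of tested genes and in 33.8% of all 32851 windows. Col1a2 was at 46.8, 24.4 and 1122 CPM in treated replicates 1, 2 and 3, and at 4.21 to 182 CPM (median 20) in control libraries. Only treated replicate 3 lay above the control range. The fold change was 3.23 ± 0.857 (adjusted p = 0.313), and -0.13 without treated replicate 3.

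Across the fibroblast and matrix list, 23 of 24 genes were tested and 0 were called. All 23 had a positive sign, 19 had an unadjusted p under 0.05 with the higher level in treated tumors, against 3.83% of all tested genes, and the median fold change was 2.91, against 0.0029 over all genes. The list median was 1.65 with limma-voom and 1.52 with the replicate number as a block. Controls whose number no treated or abscopal library shares do not inform the block fit. In treated replicate 3 all 23 exceeded the highest control, and in treated replicates 1 and 2 none did. Of all tested genes, 11.3% exceeded every control library in treated replicate 3, 6.07% in replicate 1 and 6.31% in replicate 2. Without treated replicate 3, 12 of the 23 had a positive sign, 1 had an unadjusted p under 0.05 (Fn1, with a fold change of -0.75), and the median was 0.03. The summed level of the list was 1369, 1278 and 7602 CPM in treated replicates 1, 2 and 3, and 973 to 2481 CPM (median 1408) in control libraries. Control libraries differed among themselves as well. Averaged over the list, log2 CPM came to 2.75 ± 0.89 (SD, n = 11) in controls, with a range of 1.71 to 4.49, against 3.35, 2.70 and 6.72 in the treated libraries.

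**Figure D2:**
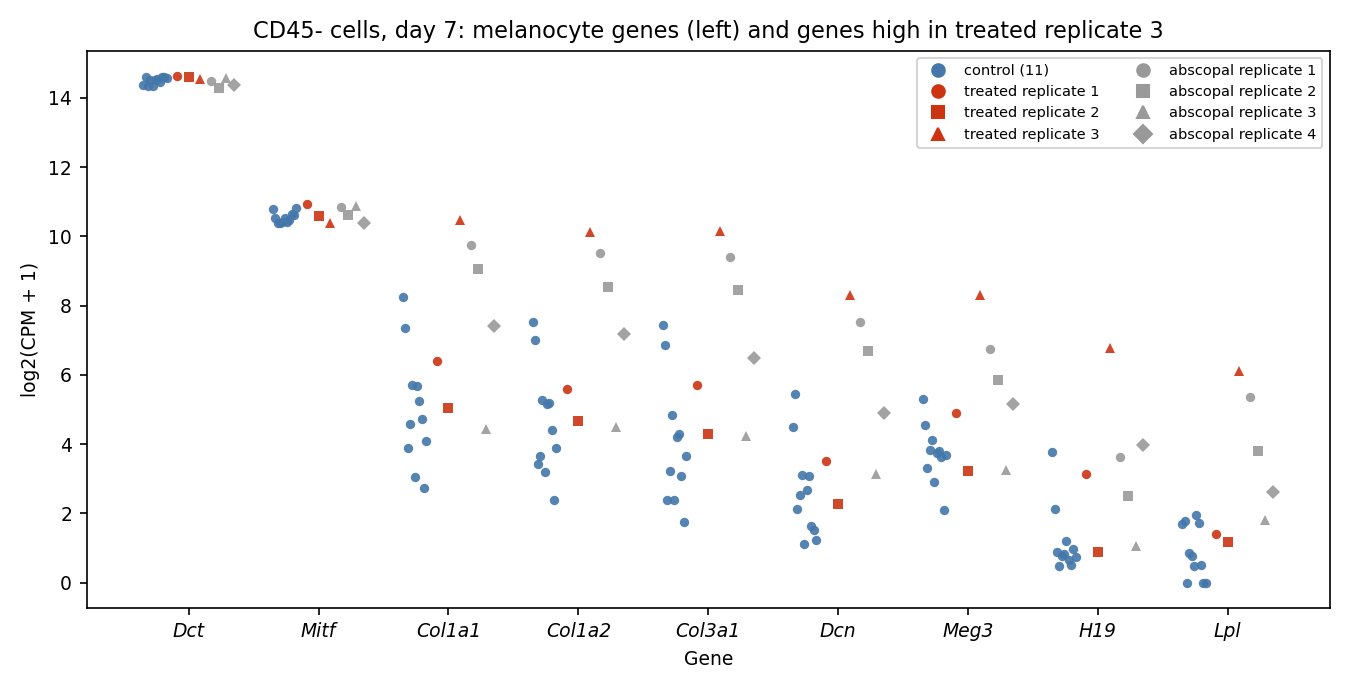
Levels of the melanocyte genes Dct and Mitf and of 7 genes high in treated replicate 3, as log2 of CPM plus 1 (vertical axis), in each CD45- day 7 library (1 point per library: 11 control, 3 histotripsy-treated and 4 histotripsy-abscopal, with the replicates of the last 2 groups told apart by shape). Treated replicate 3 lies above every control for the 7 genes, as for Col1a1 with 1409 CPM against at most 300.3 CPM, while treated replicates 1 and 2 lie among the controls.

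The 12 genes with the smallest p among those with the higher level in treated tumors were all among the 94 genes that set treated replicate 3 apart. They were H19, Itih5, Lpl, Meg3, Clec3b, Plpp3, Fstl1, Dpt, Col6a2, Dcn, C3 and Cxcl1, with adjusted p from 0.105 to 0.264. Their fold changes ranged from 1.65 to 4.91, and from -0.07 to 1.49 without treated replicate 3. H19, an imprinted long noncoding RNA (chr7:142575529-142578143), was at 7.80, 0.840 and 109 CPM against 0.397 to 12.7 CPM (median 0.770) in control libraries, with a fold change of 4.5 ± 0.794 (adjusted p = 0.105) that was 1.49 without treated replicate 3. Meg3, a second imprinted noncoding RNA (chr12:109541001-109571726), was at 28.6, 8.40 and 316 CPM against 3.28 to 38.2 CPM, and its fold change of 3.07 was 0.56 without that library. Both were inside the control range in treated replicates 1 and 2. Lpl, the lipoprotein lipase (chr8:68880491-68907448), was at 1.62, 1.26 and 67.8 CPM against 0 to 2.87 CPM, with a fold change of 4.37 ± 0.886 (adjusted p = 0.160) that was 0.54 without treated replicate 3. For 8 of the 12 genes, H19, Itih5, Lpl, Clec3b, Dpt, Col6a2, C3 and Cxcl1, the median control lay under the 4.18 CPM that the filter on low counts asks for. Of these, only Clec3b reached that level in 3 control libraries, so the others passed the filter with the help of the treated and abscopal libraries in which they were high. Plpp3, a lipid phosphatase, was at 6.17, 6.30 and 69.4 CPM against 2.94 to 8.24 CPM, and Fstl1, a secreted glycoprotein, at 58.8, 49.1 and 399 CPM against 39.8 to 70.0 CPM. In both the control libraries lay close together and treated replicate 3 was alone above them. Itih5, Clec3b and Dpt encode matrix-associated secreted proteins, C3 the central complement component and Cxcl1 a neutrophil-attracting chemokine.

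Many of the 94 genes were also above the controls in some of the tumors on the flank without ultrasound. Of the 94 genes, 89 exceeded the highest control library in abscopal replicate 1, 82 in abscopal replicate 2, 5 in abscopal replicate 3 and 20 in abscopal replicate 4. Of all tested genes, 9.59%, 8.9%, 15.9% and 15.7% did so in these libraries. Col1a1 was at 860, 527, 20.6 and 169 CPM in abscopal replicates 1, 2, 3 and 4, so that replicates 1 and 2 lay above the control range and replicates 3 and 4 inside it. Dcn was at 181, 102, 7.83 and 28.6 CPM and Lpl at 40.0, 13.0, 2.49 and 5.08 CPM in the same libraries. H19 was at 11.4, 4.62, 1.07 and 14.6 CPM, so that only replicate 4 exceeded the control range for this gene. On day 3 the summed level of the list was 887 to 21421 CPM (median 4216) in 7 treated libraries and 915 to 3373 CPM (median 1505) in 4 control libraries, with 4 treated libraries above every control and the lowest treated library below every control. In a joint fit of both days the median fold change of the 24 fibroblast and matrix genes was 2.71 on day 3 and 2.92 on day 7. On day 3, 0 of the 24 were called in that fit, against 0.251% of all its genes. Without day 7 treated replicate 3 the day 7 median of the joint fit was -0.02, so the like medians of the days rest on 1 library.

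Other cell types of the tumor bed were represented by few counts. Of 14 endothelial genes, 8 were tested, all with a positive sign, 0 with an unadjusted p under 0.05 and a median of 0.46 (0.24 without treated replicate 3). In a fit of the treated and control groups only, the median was 0.11 over the genes kept. Kdr, the main receptor for vascular endothelial growth factor, was at 3.57, 3.36 and 12.1 CPM against 0.841 to 10.2 CPM, and Flt1, a second receptor for it, at 5.85, 2.94 and 9.99 CPM against 0.420 to 7.54 CPM. Only treated replicate 3 lay above the controls for either receptor. Plvap, a protein of vessel fenestrations, was at 1.62, 2.10 and 6.31 CPM against 0.749 to 2.83 CPM. Of 8 pericyte and smooth muscle genes, 4 were tested, 2 with a positive sign, with a median of 0.44 (0.02 without treated replicate 3). Rgs5, a pericyte marker, was at 7.47, 5.04 and 13.1 CPM against 0.385 to 9.63 CPM, while Myl9, a myosin light chain of contractile cells, was at 15.6, 15.5 and 11.6 CPM against 14 to 33.1 CPM. The keratinocyte list had 1 tested gene of 11 (fold change -0.25), the T cell list 1 of 10 (0.22), and the skeletal muscle, neutrophil, NK cell and B cell lists had 0. Of 6 adipocyte genes only Lpl was tested, and the adipocyte hormone gene Adipoq had at most 2 counts in any of the 14 libraries. The monocyte and macrophage list had 3 tested genes of 17, with a median of -0.13 (-0.10 without treated replicate 3), among them Apoe, an apolipoprotein that many cell types make. Apoe was at 495, 518 and 503 CPM against 523 to 640.3 CPM in control libraries, a fold change of -0.13, with every treated library below every control.

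Hemoglobin transcripts varied more than 10-fold between libraries of the same group. The 4 tested erythroid genes of 8 had a median fold change of 1.13, which was -1.33 without treated replicate 3 and 3.24 with the replicate number as a block. Hbb-bt, a β-globin, was at 4.22, 2.94 and 77.3 CPM against 2.40 to 27.9 CPM, and Hba-a2, an α-globin, at 0.650, 4.20 and 30.0 CPM against 0.749 to 9.37 CPM. Treated replicate 3 thus had the highest globin level of the 14 libraries, and treated replicates 1 and 2 lay within or below the control range. The part of red blood cell RNA in other results was not tested. The globin genes are near-identical pairs, so the division of counts between copies is uncertain.

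Antigen presentation and interferon-induced genes showed the same split among the treated libraries, against a wide control range. Of 20 MHC class I genes 15 were tested, 0 had an unadjusted p under 0.05, 14 had a positive sign and the median fold change was 0.13. The median was -0.47 and 2 had a positive sign without treated replicate 3. B2m, the invariant light chain of MHC class I (chr2:122147686-122153083), was at 461, 918 and 1699 CPM in treated replicates 1, 2 and 3, and at 496 to 1747 CPM (median 867) in control libraries. Treated replicate 1 lay below every control and treated replicate 3 near the highest, and the fold change was 0.04 ± 0.349 (adjusted p = 0.998), or -0.49 without treated replicate 3. H2-K1, a class I heavy chain, was at 119, 209 and 426 CPM against 157 to 411 CPM, with treated replicate 1 the lowest and treated replicate 3 the highest of all 14 libraries. Its counts may include reads of near-identical class I genes. For MHC class II, whose genes are normally active in antigen-presenting cells and can be induced in tumor cells by interferon gamma, 6 of 8 genes were tested, 1 with a positive sign, with a median of -0.24 (-1.07 without treated replicate 3). H2-Aa was at 4.55, 4.20 and 25.2 CPM against 1.69 to 35.0 CPM.

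The interferon gamma list had 21 tested genes of 25, 0 with an unadjusted p under 0.05, 13 with a positive sign and a median fold change of 0.10. Without treated replicate 3, 2 had a positive sign, the median was -0.70, and 4 had an unadjusted p under 0.05, all lower in treated tumors, against 3.03% of all genes (Irf1, Gbp4, Igtp and Irgm1, with adjusted p from 0.729 to 0.742). In treated replicate 3, 14 of the 21 exceeded the highest control, against 11.3% of all tested genes. Gbp2, a guanylate-binding protein that attacks membranes of intracellular pathogens, and Igtp, an immunity-related GTPase, were picked from this list after their values were seen, because their promoters hold GAAA and GAAA again, with any 2 bases between, a form of the interferon-stimulated response element. Their 250 bases before the start site (Gbp2 chr3:142620413-142620662, Igtp chr11:58199306-58199555, both plus strand, RefSeq, GRCm38.p6) are given 5′ to 3′ with the match, found on either strand, in capitals.
Gbp2: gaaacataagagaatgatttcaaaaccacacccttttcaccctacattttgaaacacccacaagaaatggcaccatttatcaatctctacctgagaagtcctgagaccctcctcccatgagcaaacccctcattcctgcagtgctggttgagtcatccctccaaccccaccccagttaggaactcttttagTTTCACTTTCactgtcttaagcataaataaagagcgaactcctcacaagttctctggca
Igtp: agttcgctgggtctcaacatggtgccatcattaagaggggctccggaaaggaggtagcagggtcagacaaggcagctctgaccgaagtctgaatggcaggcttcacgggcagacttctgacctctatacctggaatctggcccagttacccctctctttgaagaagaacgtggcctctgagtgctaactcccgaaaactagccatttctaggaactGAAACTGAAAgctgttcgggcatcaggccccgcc
The matches start 59 and 34 bases before the start sites. Such letters were found in 11 of 21 windows (52.4%) of the 18 interferon gamma genes matched to the table, in 2.47% of the windows of tested genes and in 2.98% of all windows. Igtp was at 26.3, 27.3 and 136 CPM in treated replicates 1, 2 and 3, and at 20.1 to 115 CPM (median 49.2) in control libraries. Treated replicate 3 was above every control and the other 2 treated libraries were in the lower part of the control range. The fold change was -0.14 ± 0.492, and -1.27 without treated replicate 3. Gbp2 was at 16.9, 12.2 and 73.6 CPM against 7.49 to 52.8 CPM (median 21.0), with fold changes of 0.31 ± 0.487 with treated replicate 3 and -0.79 without it.

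Cd274, which encodes the checkpoint ligand PD-L1, was at 2.60, 5.46 and 10.5 CPM against 2.34 to 12 CPM. The chemokine gene Cxcl9 was at 2.92, 2.52 and 25.2 CPM against 0 to 12 CPM, and Cxcl10 at 5.85, 7.14 and 16.3 CPM against 3.36 to 18.6 CPM. Both chemokines attract T cells through the receptor CXCR3. Cxcl9 exceeded the controls in treated replicate 3 only, and Cd274 and Cxcl10 stayed inside the control range in all 3 treated libraries. The type I interferon list had 28 tested genes of 32, 15 with a positive sign and a median of 0.05 (-0.60 without treated replicate 3, with 1 positive sign). Its 1 gene with an unadjusted p under 0.05 in the full fit was Ifi27l2a, at 0.325, 0 and 12.6 CPM against 0 to 3 CPM. No control reached the 4.18 CPM of the filter on low counts, so this gene passed it only through treated replicate 3 and abscopal libraries. For the interferon gamma list the mean log2 CPM was 3.05, 3.28 and 4.85 in treated replicates 1, 2 and 3, against 3.61 ± 0.69 (SD, n = 11) in controls with a range of 2.64 to 4.43.

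**Figure D3:**
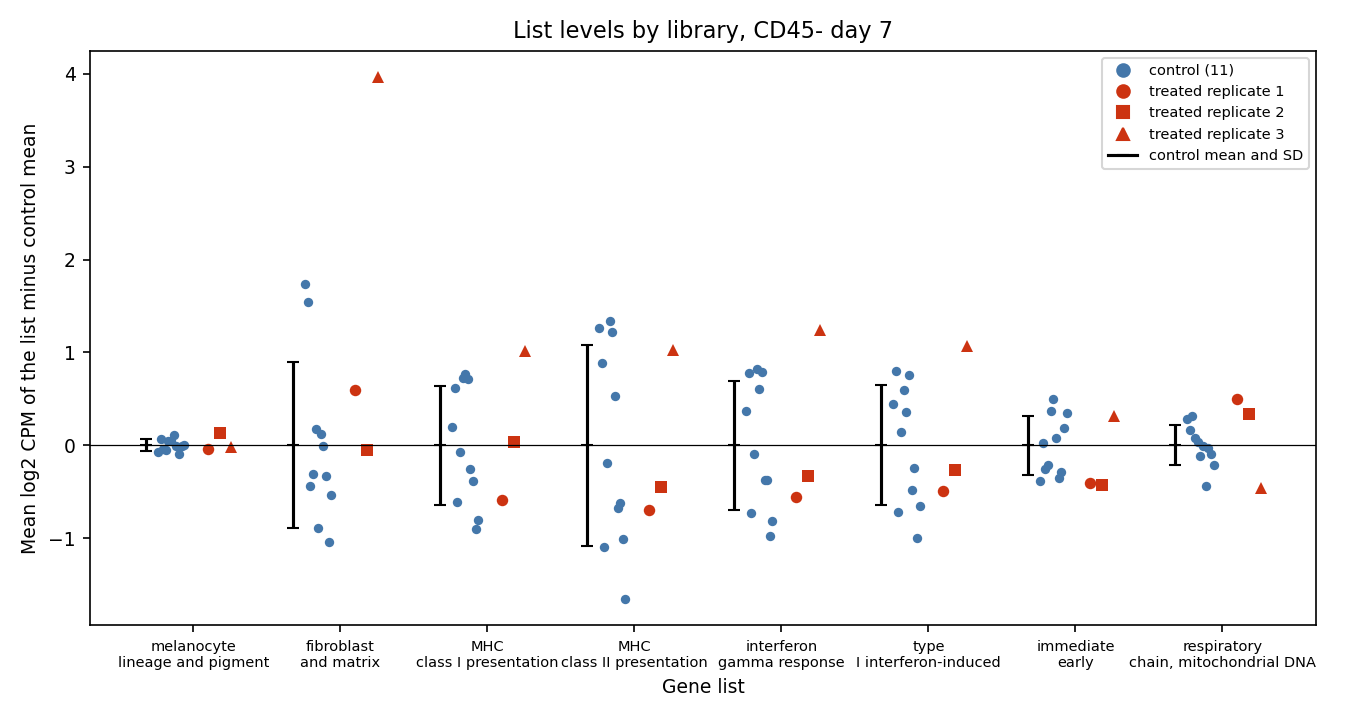
Mean log2 CPM of 8 gene lists in each CD45- day 7 library, minus the mean of the 11 control libraries (vertical axis in log2 units; 1 point per library; bars give the control mean and SD). Treated replicate 3 lies above all controls for the matrix list (6.72 before subtraction, against at most 4.49) and the interferon gamma list (4.85 against at most 4.43), while treated replicates 1 and 2 lie within the control range for both.

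The 12 genes with the smallest p among those with the lower level in treated tumors had like fold changes with and without treated replicate 3. They were Cpeb2, Rpp38, Elmsan1, Efl1, Rbm18, Fam210a, Cdkn1a, Cd109, Lin52, Tsc22d3, Lrig2 and Ptpn14, with adjusted p from 0.313 to 0.443. Their fold changes ranged from -0.88 to -0.28, and from -0.91 to -0.27 without treated replicate 3. Choice by p in the fit of all 3 treated libraries favors genes in which these agree, so the likeness is no separate support. Cpeb2, which binds messenger RNA tails and controls their translation (chr5:43233170-43289724), was at 9.75, 10.1 and 11.6 CPM in treated replicates 1, 2 and 3, and at 13.0 to 21.5 CPM (median 19.3) in control libraries. Every treated library was below every control, with a fold change of -0.75 ± 0.200 (adjusted p = 0.313). Ptpn14, a tyrosine phosphatase that restrains the Hippo pathway coactivator YAP, was at 74.1, 64.7 and 71.5 CPM against 79.0 to 95.9 CPM, again without overlap, with a fold change of -0.28 ± 0.0862. Efl1, a GTPase of ribosome assembly, was at 15.3, 19.3 and 21.0 CPM against 22.3 to 30.7 CPM, and Lin52, a subunit of the cell cycle repressor complex DREAM, at 8.12, 7.14 and 6.31 CPM against 10.3 to 16.4 CPM. The groups did not overlap for these genes, nor for Rbm18, Fam210a and Lrig2.

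Cdkn1a, a p53 target that encodes the cell cycle inhibitor p21 (chr17:29090976-29100727), was at 154, 124 and 171 CPM against 167 to 264 CPM (median 224). Treated replicate 3 was just inside the control range and the other 2 below it, with a fold change of -0.50 ± 0.145 (adjusted p = 0.381). Tsc22d3, a glucocorticoid-induced transcription regulator, was at 5.20, 6.30 and 6.31 CPM against 4.49 to 16.2 CPM (median 11.7), so that the lowest control lay below all treated libraries and most controls above them. Cd109, a membrane protein that dampens TGF-β signaling, was at 32.5, 29.4 and 41.5 CPM against 39.2 to 68.6 CPM, and Rpp38, a protein of ribonuclease P, at 11, 11.3 and 12.1 CPM against 11.2 to 27.0 CPM. Over all tested genes the groups did not overlap for 68 (0.618%), with every treated library below every control for 52 (0.473%) and above for 16 (0.146%). Polr2h, a small subunit shared by the RNA polymerases, was among the 16 and was picked after its values were seen. It was at 19.5, 18.9 and 24.7 CPM against 8.96 to 16.9 CPM, with a fold change of 0.74 ± 0.201 (adjusted p = 0.313).

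Stress and death pathways had small fold changes in either direction. Hmgb1, a chromatin protein that acts as a danger signal once released from dying cells (chr5:149046702-149184489), was at 181, 263 and 182 CPM in treated replicates 1, 2 and 3, and at 121 to 214 CPM (median 151) in control libraries. All 3 treated libraries lay above the control median and replicate 2 above every control, and the fold change was 0.46 ± 0.149 (adjusted p = 0.508), or 0.57 without treated replicate 3. These are transcript levels and carry no information on release of the protein. Near-identical Hmgb1 pseudogenes make the count uncertain. In the list of necroptosis and other lytic death, 16 of 20 genes were tested, 8 had a positive sign and the median was 0.0047 (-0.04 without treated replicate 3). Of the 16, Hmgb1 alone had an unadjusted p under 0.05, against 6.07% of all genes. Mlkl, the pore-forming executor of necroptosis, was at 17.5, 22.7 and 25.2 CPM against 12.6 to 30.0 CPM, inside the control range throughout. Gsdmd, the pore-forming protein of pyroptosis, was at 3.57, 3.78 and 5.26 CPM against 1.35 to 5.99 CPM. Ripk3, the kinase that activates Mlkl, and the cytokine gene Tnf had at most 4 counts in any of the 14 libraries and were not tested.

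The ferroptosis, iron and glutathione list had 28 tested genes of 32, 0 with an unadjusted p under 0.05, 11 with a positive sign and a median of -0.03. Slc7a11, the cystine importer, was at 21.4, 17.2 and 16.3 CPM against 10.6 to 34.2 CPM, and Gpx4, which removes lipid peroxides, at 16.9, 18.5 and 12.1 CPM against 10.5 to 25.3 CPM. Neither left the control range. The list of endoplasmic reticulum stress had 30 tested genes, of which 1 was higher (Calr) and 3 were lower (Atf3, Trib3 and Chac1) at an unadjusted p under 0.05, against 3.83% and 2.25% of all genes, with a median of -0.07. Calr, a calcium-binding chaperone that marks dying cells when exposed on their surface, was at 685, 1263 and 799 CPM against 575 to 910 CPM, with replicate 2 alone above the controls. Trib3, a pseudokinase induced by this stress, was at 56.9, 48.3 and 72.6 CPM against 56.6 to 111 CPM. Hspa5, the main chaperone of the endoplasmic reticulum, was at 1879, 2141 and 1828 CPM against 1721 to 2721 CPM, within the controls. Of 26 heat shock chaperones, 6 had a positive sign and the median was -0.10. At an unadjusted p under 0.05, 1 gene was higher (Hspa4) and 1 lower (Hspb1), against 3.83% and 2.25% of all genes. Hspa4 was at 428, 417 and 344 CPM against 281 to 386 CPM, and Hspb1, a small heat shock protein, at 16.9, 28.1 and 28.4 CPM against 19.3 to 82.5 CPM. Hspa4 was above every control in replicates 1 and 2, and Hspb1 below every control in replicate 1. The stress-inducible chaperone Hspa1b was at 100.4, 154 and 164 CPM against 68.1 to 420 CPM, and its co-chaperone Dnajb1 at 180, 189 and 188 CPM against 148 to 625 CPM. Counts of Hspa1b are uncertain because Hspa1a is nearly identical.

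Immediate early genes, which respond to a stimulus without new protein synthesis, had 24 tested members of 28, with 5 positive signs and a median fold change of -0.17. At an unadjusted p under 0.05, 1 was higher (Myc) and 2 were lower (Jund and Atf3), against 3.83% and 2.25% of all genes. When treated replicate 3 was left out, the median was -0.54, 3 had a positive sign, and 8 had an unadjusted p under 0.05, all of them lower, against 3.03% of all genes: Junb, Ier2, Ier3, Ier5, Atf3, Klf2, Klf6 and Btg2. Averaged over these genes, log2 CPM came to 5.78, 5.75 and 6.50 in treated replicates 1, 2 and 3, and 6.18 ± 0.32 (SD, n = 11) in control libraries, with a range of 5.79 to 6.67. Atf3, a stress-induced transcription factor (chr1:191170296-191218039), was at 40.6, 33.6 and 71.0 CPM against 35.9 to 136 CPM (median 85.3). All 3 treated libraries lay below the control median and replicate 2 below every control, with a fold change of -0.87 ± 0.295 (adjusted p = 0.595), or -1.19 without treated replicate 3. Myc, a growth-promoting transcription factor, was at 32.5, 31.9 and 34.2 CPM against 16.7 to 32 CPM, so that replicates 1 and 3 were above every control and replicate 2 at the top of the range, with a fold change of 0.43 ± 0.194 (adjusted p = 0.807).

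The list of TNF, NF-κB and inflammatory cytokines had 21 tested genes of 39, with 7 higher and 1 lower at an unadjusted p under 0.05, against 3.83% and 2.25% of all genes, and a median of 0.18. The count was 0 and the median -0.04 without treated replicate 3. With the replicate number as a block the median was 0.69. Csf1, a macrophage growth factor, was at 3.57, 3.36 and 12.6 CPM against 1.59 to 6.70 CPM, and Ccl2, a monocyte-attracting chemokine, at 1.62, 0.840 and 11 CPM against 0 to 2.23 CPM. Cxcl1 was at 1.95, 1.26 and 36.8 CPM against 0.385 to 4.8 CPM. All of these were above the controls in treated replicate 3 only. No control library for Ccl2 and 1 for Cxcl1 reached the 4.18 CPM that the filter on low counts asks for. Both passed it with the help of the treated and abscopal libraries in which they were high, so the count of 7 is not independent of that rise. The TGF-β and BMP list had 19 tested genes of 28 and a median of 0.11 (-0.15 without treated replicate 3). Tgfbr2, a TGF-β receptor, was at 6.50, 5.88 and 33.1 CPM against 6.73 to 12.5 CPM, below every control in 2 treated libraries and above every control in the other, while Smad4, the mediator shared by these pathways, was at 83.8, 85.3 and 91.0 CPM against 88.4 to 120 CPM.

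Invasion and mesenchymal genes had 15 tested members of 22, with 3 higher at an unadjusted p under 0.05 (Mmp14, Lox and Tnc), against 3.83% of all genes, and a median of 0.20 that was -0.13 without treated replicate 3. Mmp14, a membrane-anchored protease that cleaves collagen (chr14:54431612-54445364), was at 181, 221 and 243 CPM against 156 to 197 CPM (median 162). It differed from most matrix genes in that replicates 2 and 3 were both above every control, and the fold change was 0.38 ± 0.114 (adjusted p = 0.402) with treated replicate 3 and 0.31 without it. Lox, the enzyme that cross-links collagen, was at 5.20, 3.78 and 94.1 CPM against 0.468 to 30.7 CPM, above the controls in treated replicate 3 only.

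Genes of proliferation and metabolism had list medians close to 0. Of 47 cell cycle genes 46 were tested, 28 had a positive sign and the median was 0.03, with or without treated replicate 3. Of the 46, 1 had an unadjusted p under 0.05 (Bub1, a spindle checkpoint kinase), against 6.07% of all genes. Mki67, a proliferation marker, was at 80.2, 90.3 and 77.8 CPM against 56.1 to 107 CPM, and Bub1 at 30.5, 39.5 and 44.2 CPM against 17.2 to 44.2 CPM. Of 16 tested p53 targets, 5 had a positive sign and the median was -0.07. Of 36 tested glycolysis and hypoxia genes, 9 had a positive sign, 0 were higher and 3 lower (Egln3, Pfkl and Slc16a3) at an unadjusted p under 0.05, against 2.25% of all genes, and the median was -0.12 (-0.14 without treated replicate 3). Of the 36, 14 lay below every control in treated replicate 1, 10 in replicate 2 and 6 in replicate 3. The shares over all tested genes were 10.7%, 9.93% and 8.36%. In each treated library 1 of the 36 lay above every control, against 6.07%, 6.31% and 11.3% of all tested genes. Egln3, an oxygen-sensing hydroxylase, was at 2.27, 2.52 and 3.16 CPM against 2.41 to 7.15 CPM, with 1 treated library below the controls. Pfkl, a phosphofructokinase, was at 131, 117 and 125 CPM against 134 to 175 CPM, with every treated library below every control. Slc16a3, a lactate exporter, was at 197, 216 and 200 CPM against 211 to 273 CPM, and the lactate dehydrogenase gene Ldha at 2866, 3134 and 2821 CPM against 2788 to 3369 CPM. Cholesterol synthesis (21 tested genes) and the lysosome (21 tested genes) had medians of -0.06 and -0.04. Psap, a precursor of lysosomal activator proteins, was at 391, 209.6 and 226 CPM against 117 to 302 CPM, with replicate 1 alone above the controls.

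Transcripts of mitochondrial DNA split the treated libraries the other way. All 7 tested of 13 genes had a positive sign with a median of 0.20, 0 with an unadjusted p under 0.05. The median turned to -0.04 without treated replicate 1 and to -0.04 with the replicate number as a block, under which mt-Cytb and mt-Nd6 were at -0.052 and -0.0080. Without treated replicate 3 the median was 0.45 and 6 of 7 had an unadjusted p under 0.05, all higher in treated tumors, against 3.6% of all genes, with no adjusted p under 0.563. The complex III gene mt-Cytb was at 6739, 5700 and 3423 CPM in treated replicates 1, 2 and 3, and at 3449 to 6076 CPM (median 4789) in control libraries. Replicate 1 lay above and replicate 3 below every control. The complex I subunit mt-Nd6 was at 1036, 901 and 518 CPM against 525 to 828 CPM, with replicates 1 and 2 above the control range and replicate 3 below it. The share of all counts from mitochondrial genes was 10.7%, 8.46% and 6.64% in treated replicates 1, 2 and 3, and 6.99% to 12.8% in controls.

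**Figure D4:**
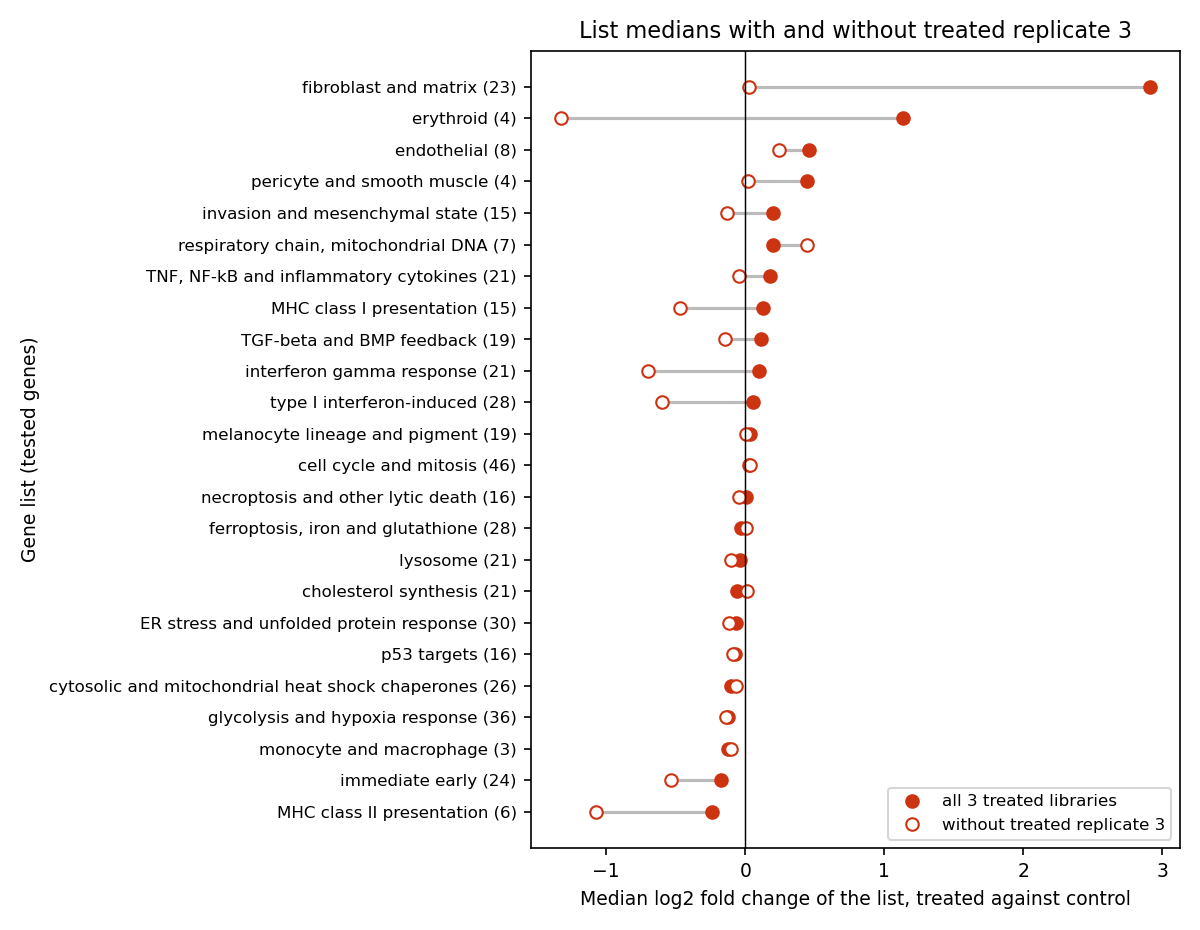
Median log2 fold change of each gene list, treated over control, with all 3 treated libraries and without treated replicate 3 (horizontal axis in log2 units; 1 pair of points per list). The matrix list is at 2.91 with and 0.03 without treated replicate 3, and the interferon gamma list at 0.10 and -0.70.

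Whether the effect of treatment differed between day 7 and day 3 was tested as an interaction over 11548 genes. It came from a joint fit of all CD45- libraries of both days. The interaction compared 3 treated and 11 control libraries on day 7 with 7 treated and 4 control libraries on day 3. The abscopal libraries of both days were in the fit and entered its filter, scaling and estimate of spread. No gene was called by edgeR (0%) and 695 (6.02%) had an unadjusted p under 0.05, 363 of them (3.14%) with the lower effect on day 7. Limma-voom called 0 genes and DESeq2 13 of 8189 (0.159%), of which 10 had the lower effect on day 7. The smallest adjusted p in the edgeR fit was 0.0598, for Atf3. Its promoter is shown because its 250 bases before the start site (chr1:191183334-191183583, minus strand, RefSeq, GRCm38.p6) hold the letters TGACG, the core of the cAMP response element to which factors of the CREB and ATF family bind. The match, on the opposite strand and starting 7 bases before the start site, is in capitals.
Atf3: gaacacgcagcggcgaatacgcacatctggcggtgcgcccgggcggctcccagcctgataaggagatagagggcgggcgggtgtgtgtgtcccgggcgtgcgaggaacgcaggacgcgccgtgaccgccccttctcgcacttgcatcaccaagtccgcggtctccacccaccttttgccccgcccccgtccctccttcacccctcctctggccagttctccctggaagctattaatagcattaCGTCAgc
TGACG, searched on both strands, was found in 13 of 24 windows (54.2%) of the 20 immediate early genes matched to the table, in 27.8% of the windows of tested genes and in 17.8% of all windows.

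Atf3 was at 127 ± 28.6 CPM (SD, n = 7) in treated and 54.6 ± 9.30 CPM (n = 4) in control tumors on day 3, and at 48.4 ± 19.9 CPM (n = 3) in treated and 88.3 ± 30.7 CPM (n = 11) in control tumors on day 7. The joint fit gave a fold change of 1.21 on day 3 and -0.87 on day 7, a difference of -2.08 ± 0.391 (edgeR adjusted p = 0.0598, DESeq2 adjusted p = 0.00033). The edgeR adjusted p of Atf3 fell to 0.0251 when day 7 treated replicate 3 was left out. It was also under the threshold without day 3 treated replicate 1 (0.0341), day 7 control replicate 1 (0.0140) or day 7 control replicate 8 (0.0393). It rose when certain other libraries were left out. Without day 3 control replicate 4 the smallest edgeR adjusted p of any gene, and so a lower limit for Atf3, was 0.2997. This limit was 0.2498 and 0.2094 without day 7 treated replicates 1 and 2, and 0.158 without day 3 control replicate 1. The control tumors themselves were lower on day 3 than on day 7 by their means, with overlapping ranges of single libraries. Smad7, an inhibitor that TGF-β induces against its own signal, was at 33.0 ± 8.98 against 12.2 ± 1.93 CPM on day 3 and at 13.3 ± 2.13 against 14 ± 2.46 CPM on day 7. Its effects were 1.42 and -0.05, a difference of -1.47 ± 0.309 (edgeR adjusted p = 0.160, DESeq2 0.0276). Without day 3 treated replicate 4 the edgeR adjusted p of Smad7 was 0.0185. It rose above 0.160 without day 3 control replicate 4, day 7 treated replicate 1 or day 7 treated replicate 2, where every gene had a higher value than that. Id3, an inhibitor of differentiation induced by BMP signals, was at 60.8 ± 25.9 against 12.8 ± 7.74 CPM on day 3 and at 20.7 ± 5.33 against 19.3 ± 7.21 CPM on day 7, a difference of -2.09 ± 0.507 (edgeR adjusted p = 0.160, DESeq2 0.0276). For both genes the control levels of the 2 days overlapped, and the treated level on day 7 lay among the controls. Hspa1b, at 313 ± 176 against 118 ± 19.8 CPM on day 3 and 139 ± 34.0 against 221 ± 121 CPM on day 7, differed by -2.01 ± 0.586 (edgeR adjusted p = 0.405). Kdm7a, a histone demethylase, was at 63.7 ± 8.32 against 99.8 ± 15.2 CPM on day 3 and at 78.1 ± 7.52 against 82.8 ± 14.1 CPM on day 7.

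Among the lists, immediate early genes held the most members with a different effect on the 2 days. Of 25 in the joint fit, 14 had an unadjusted p under 0.05 with the lower effect on day 7, against 3.14% of all genes, and their median effect was 0.67 on day 3 and -0.18 on day 7, with a median difference of -0.87 against -0.0065 over all genes. The count was 9 of 26 for heat shock chaperones (median difference -0.25), 6 of 30 for endoplasmic reticulum stress (-0.24) and 5 of 20 for TGF-β and BMP genes (-0.20). Sgk1, Skil, Trib1, Ier5, Klf4, Ncald and Gm26177 were further genes with the lower effect on day 7 that DESeq2 called. U2af1, Zfp768 and Hoxd4 were called with the higher effect on day 7. For the matrix list the count was 0 of 24 and the median difference -0.02, and for the interferon gamma list 1 of 21 and -0.03. Both medians rest on day 7 treated replicate 3: without it they were -2.65, with 2 of 24 genes at an unadjusted p under 0.05, and -1.09, with 1 of 21, against 3.96% of all genes with the lower effect on day 7. The immediate early count was then 20 of 25 with a median difference of -1.15, and the TGF-β and BMP count 10 of 21 with a median of -0.53. The counts of the 2 days were deposited as separate tables of raw counts and were scaled together here.

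**Figure D5:**
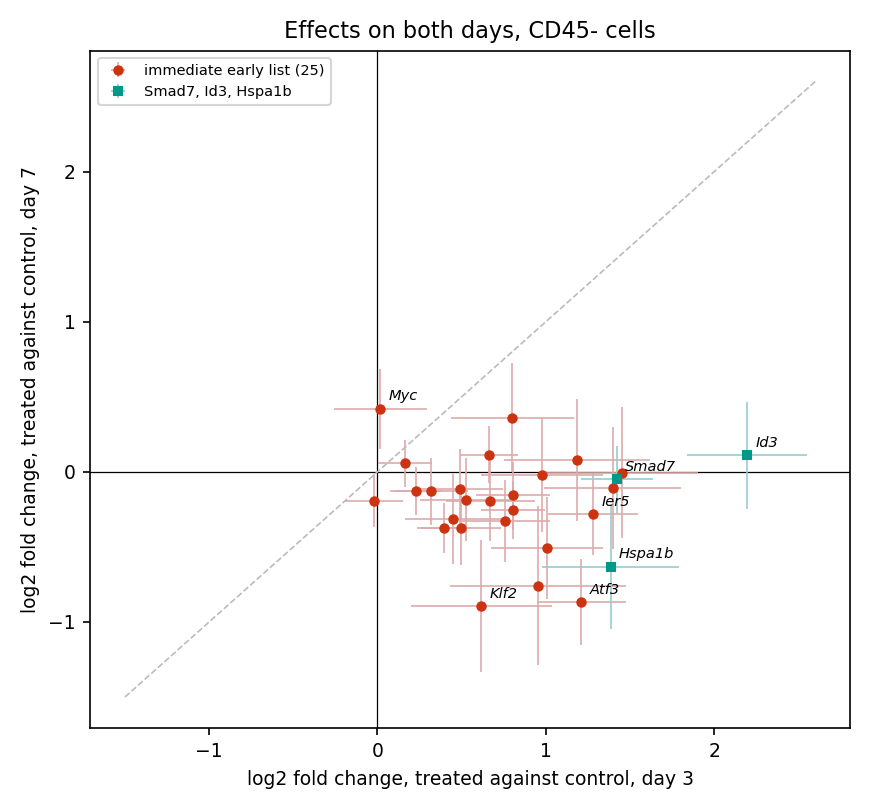
Log2 fold change of treated over control on day 3 (horizontal axis) and on day 7 (vertical axis) in the joint fit of the CD45- libraries, for the 25 immediate early genes (circles) and Smad7, Id3 and Hspa1b (squares). Bars are 1 SE, the dashed line marks equal effects, and nearly all points lie below it, with Atf3 at 1.21 on day 3 and -0.87 on day 7 and Id3 at 2.20 and 0.11.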

How the data were processed

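RNA of flow-sorted CD45- cells from B16F10 tumors was sequenced as QuantSeq 3′ libraries. Per the labels and methods, the authors trimmed reads with Trim Galore 0.5.0, aligned them with STAR 2.6.0, collapsed unique molecular identifiers, assigned reads to genes of GRCm38 with featureCounts and deposited raw counts per gene, without normalization, as a table for each fraction and day. The strand setting is not given in the sources used here, so overlapping and near-identical genes are uncertain. Groups came from the sample labels. Depth was 1335518 to 3132646 counts per library.

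Counts of all 18 CD45- day 7 libraries (11 control, 3 treated, 4 abscopal) were fitted with edgeR 4.0.16 in R 4.3.3 (TMM factors, filterByExpr with a minimum count of 10 and a minimum total of 15, quasi-likelihood test, Benjamini-Hochberg adjustment over all tested genes, threshold 0.05). The difference between days was the interaction in 1 fit of both CD45- tables, with the abscopal libraries of both days included. The alternatives were DESeq2 1.42.0, limma-voom (limma 3.58.1), library totals as scaling, no filter, a mean of at least 5 CPM, a fit of the treated and control groups only, libraries of at least 1000000 counts (all passed, so this is the same fit), each library left out in turn, and the replicate number as a block. Principal components used log10 of CPM plus 1. The scripts were tested on simulated data. Replicates of a group differed beyond sampling noise, so none was merged.

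Genes were named as the 12 of smallest p in each direction with a mean of at least 10 CPM in either group (none was called), up to 3 of smallest p in each list, 25 fixed genes (of which 1 is not reported here), and others where the text says so; Col1a2, Col3a1, Polr2h, Irf1, Gbp2, Gbp4, Igtp, Irgm1 and the immediate early and DESeq2-called genes listed by count were added after their values were seen. The comparison, gene lists and named genes were chosen with earlier results of these data known, so lists are described by counts and medians, with no set test. Promoters are RefSeq windows (250 bases, GRCm38.p6, 8314 of 10996 tested genes matched), and gene positions are from GENCODE M21.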

Additional observations from a re-analysis of the deposited data

How the results depend on the processing

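The count of 0 called genes between treated and control tumors was also 0 with DESeq2, limma-voom, library totals, a mean of at least 5 CPM and a fit of the treated and control groups only. Without a filter on low counts it was 165 (158 higher and 7 lower of 28569 genes), and with 1 library left out it ranged from 0 to 26. The cause was not tested. For the difference between days, the count of 0 became 13 with DESeq2 and 22 of 32432 genes without a filter, and ranged from 0 to 1 with 1 library left out. The deviations of treated and control libraries of the same number correlated at 0.096, -0.240 and -0.188. The best matching controls of treated replicates 1, 2 and 3 were controls 4, 3 and 2. Treated and abscopal libraries were not compared in this way, so whether numbers mark a shared mouse or batch was not tested. With the replicate number as a block, 0 genes were called and 391 had an unadjusted p under 0.05. Controls 5 to 11 share their number with no treated or abscopal library, so they added nothing to this comparison. Values with the block therefore rest on fewer controls. The block turned the sign of Mitf (-0.0022), Tyrp1 (0.054), H2-K1 (-0.0016), Cxcl10 (0.15), Dnajb1 (0.083), Hspa1b (0.23), Slc7a11 (0.0025), mt-Nd6 (-0.0080) and mt-Cytb (-0.052).

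Other settings turned 6 values of genes near 0 or of wide spread: Ldha with DESeq2 (0.0027) and with the 2 groups only (0.00068), Hba-a2 (-0.032), Hbb-bt (-0.13) and H2-K1 (-0.060) with limma-voom, and Mki67 with library totals (-0.015). With each library left out in turn, these genes took either sign. The lowest and highest fold changes were -0.074 and 4.40 for Dcn, -0.13 and 3.79 for Col1a2, -0.15 and 3.16 for Lox, -1.20 and 3.45 for Ifi27l2a, -0.45 and 1.09 for Tgfbr2, -1.0 and 1.78 for Hba-a2, -1.65 and 1.68 for Hbb-bt, -0.49 and 0.38 for B2m, -0.54 and 0.36 for H2-K1, -0.20 and 1.99 for Cxcl9, -0.60 and 0.18 for Cxcl10, -0.62 and 0.33 for Cd274, -0.79 and 0.71 for Gbp2, -1.27 and 0.25 for Igtp, -0.042 and 0.28 for Mitf, -0.11 and 0.035 for Pmel, -0.012 and 0.20 for Mlkl, -0.18 and 0.10 for Gpx4, -0.15 and 0.0059 for Smad7, -0.072 and 0.23 for Id3, -0.044 and 0.089 for Mki67, -0.055 and 0.051 for Ldha, and -0.038 and 0.45 for mt-Cytb. List medians moved most without treated replicate 3, which moved 7 of 24 lists by 1 SD of the control libraries or more. The matrix median was 1.65 with limma-voom and 1.52 with the block, and the mitochondrial median was -0.04 with the block and without treated replicate 1. With the block the erythroid median was 3.24 and the median of TNF, NF-κB and inflammatory cytokines 0.69. The endothelial median was 0.11 with the treated and control groups only, over the genes kept in that fit. The melanocyte median was -0.06 without treated replicate 2.

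That only 3 libraries were treated limits the precision, and genes of a few counts per library, such as Ripk3 and Tnf, could not be tested at this depth.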

Other observations

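Xist, the noncoding RNA of the inactive X chromosome (chrX:103460366-103483254), was picked after its values were seen because it is among the 94 genes that set treated replicate 3 apart. It was at 5.85, 0.840 and 25.2 CPM in treated replicates 1, 2 and 3, at 0 to 4.49 CPM (median 1.72) in the 11 control libraries, and at 27.3, 17.2, 0.711 and 4.44 CPM in abscopal replicates 1 to 4. In the CD45+ cells of day 7 control tumors it was at 595 ± 142 CPM (SD, n = 10). The Y-linked gene Ddx3y had at most 1 count in any of the 14 CD45- libraries. The sources used here give no sex for a library, and whether the host's sex moves with any result was not tested.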
